A study of Mus musculus with 6 samples.

Results

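The c-Jun N-terminal kinases (JNKs), other MAP kinases and the JIP scaffolds that hold JNK cascades together were examined in sorted cells of mouse small-cell lung cancer. The 9 listed genes are Mapk3, Mapk4, Mapk8, Mapk9, Mapk10, Mapk14, Mapk8ip1, Mapk8ip2 and Mapk8ip3, and 8 of them had a row on the array whose annotation names that gene alone, out of 22179 genes measured in this way. Mapk3 was not analysed here. The genes were selected on their log2 values in GFP-high and GFP-negative cells, the same contrast as reported here. Their values are therefore given as a description, and nothing is read from a test of them.

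Tumours came from mice with conditional Rb, p53 and p130 alleles, deleted by adenoviral Cre given into the trachea, and both sorted populations share this background and a GFP reporter allele of Hes1, a Notch-induced repressor. Lung tumours were taken 5 to 6 months after Cre, and tumours of 3 mice were pooled and sorted into GFP-high cells (3 samples) and GFP-negative cells (3 samples), each read on 1 Affymetrix Mouse Gene 2.0 ST array. The samples are titled biological replicates, with no statement of whether separate pools of mice lie behind them, so the p-values below measure only the spread between these samples. The labels name neither the cells that the adenovirus infected nor the host cells that remained in the sort.

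MAP kinases are the last kinases of 3-step relays in which a MAP3K activates a MAP2K and the MAP2K activates the MAP kinase. JNK and p38 kinases respond to stress and cytokines, and ERKs to growth factor receptors acting through Ras. JNK1 and JNK2 are made in most tissues, whereas JNK3 is largely confined to brain, heart and testis. The JIP proteins bind JNK and its upstream kinases and also attach to kinesin, which carries them along axons. Neuroendocrine tumour cells share many genes with neurons.

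The arrays followed the sort. Hes1 read 10.49, 10.27 and 10.43 on the log2 scale in GFP-high cells, against 6.93, 6.98 and 6.65 in GFP-negative cells. Of 14 measured neuroendocrine markers 12 were lower in GFP-high cells and 2 were not called, and the mean log2 level over the list spanned 7.11 to 8.02 over the GFP-high arrays and 9.37 to 9.43 over the GFP-negative arrays. GFP-high replicate 3 stood apart from the other GFP-high arrays at the upper end of that span, and without it 12 of the 14 markers were again called lower. Club cell markers were higher in 7 of 8 (1 lower), with array means of 12.06 to 12.26 in GFP-high cells against 8.13 to 8.93 in GFP-negative cells, alveolar type 2 markers in 9 of 10 (9.54 to 9.98 against 5.93 to 6.36) and alveolar type 1 markers in 9 of 9 (8.75 to 9.06 against 6.67 to 6.79). Leukocyte markers were lower in 1 of 9 with none higher (5.74 to 6.20 against 5.90 to 6.27). Endothelial markers had 1 higher and 1 lower of 9 (5.60 to 5.71 against 5.38 to 5.42), and so had fibroblast and smooth muscle markers (5.53 to 6.16 against 5.64 to 5.73). Of 5 measured ciliated cell markers 1 was higher and 1 lower (5.65 to 6.13 against 5.25 to 5.61). The neuroendocrine list was lower in GFP-high cells, the direction of the MAP kinase genes described next. The club, alveolar type 2 and alveolar type 1 lists went the opposite way. The part of these cell types in the MAP kinase values was not tested. In sorted bulk samples, fewer cells of a type and less RNA per cell cannot be told apart.

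All 8 measured genes averaged lower in GFP-high cells, with log2 differences between -1.77 and -0.23 and a median difference of -1.08, against 0.01 over all genes. In 7 of the 8 every GFP-high array read below every GFP-negative array, a pattern seen in 24.6% of all genes, and in Mapk8ip3 the groups overlapped. The limma fit over all genes placed 6 of the 8 below its threshold (adjusted p under 0.05) as lower in GFP-high cells, where 17% of all genes stood, and 0 as higher; 30% of all genes passed in either direction. Because the list was drawn up with this contrast known, nothing is read from these counts. The differences formed a graded order in which Mapk8ip2 and Mapk10 stood farthest from 0, then Mapk4 and Mapk8ip1, then Mapk8, and Mapk14, Mapk9 and Mapk8ip3 lay nearest to 0.

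**Figure D1:**
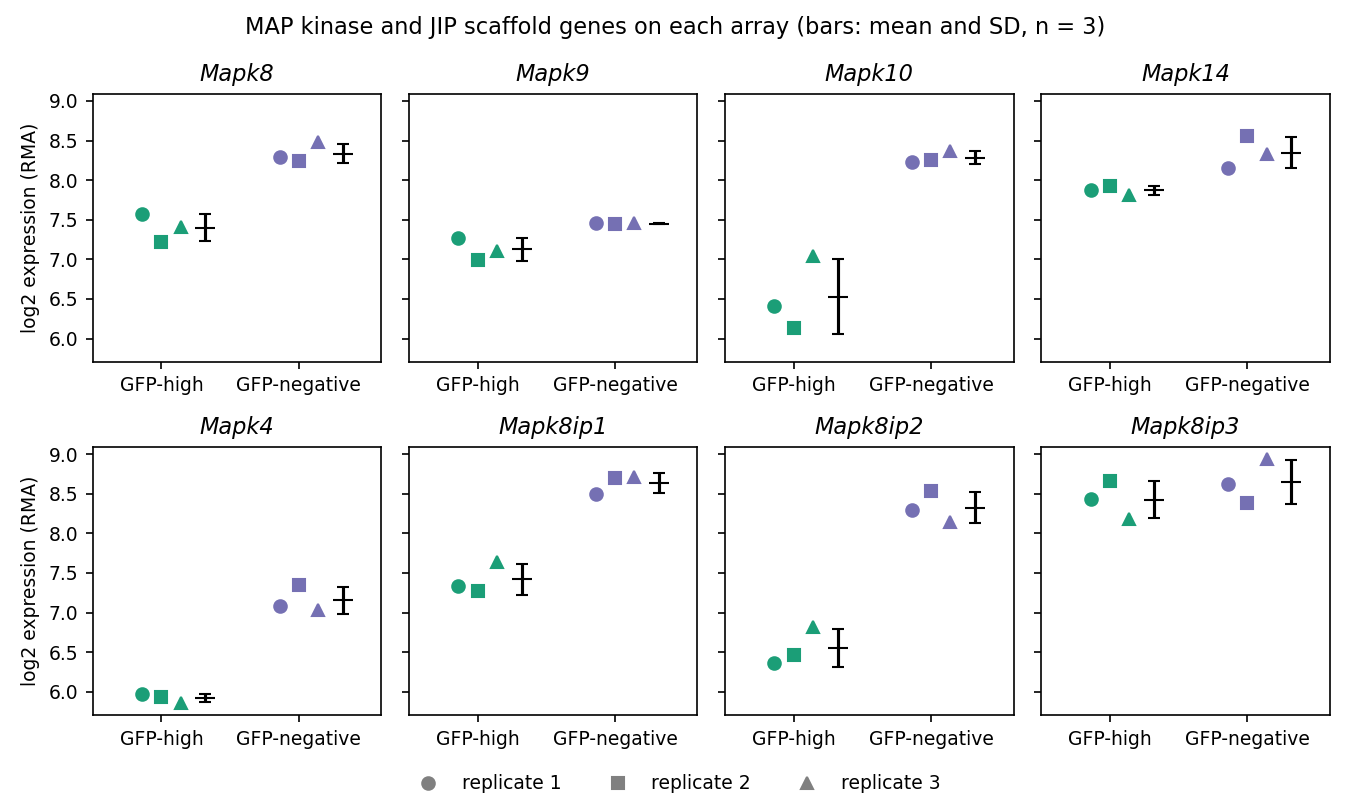
Log2 expression (RMA, vertical axis) of the 8 measured genes in GFP-high (green, left) and GFP-negative (purple, right) cells, with a symbol for each array and the mean and SD beside it (n = 3 per group). The groups are apart in 7 genes, most widely in Mapk8ip2 and Mapk10, and overlap in Mapk8ip3.

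Among the JNK genes, Mapk10 differed most. Mapk10, which encodes the neuronal kinase JNK3, read 6.41, 6.13 and 7.05 in GFP-high cells, against 8.23, 8.25 and 8.37 in GFP-negative cells. The highest GFP-high array lay 1.18 below the lowest GFP-negative one, and the GFP-high arrays were spread over 0.91, against 0.15 for the GFP-negative arrays. The group means were 6.53 ± 0.47 in GFP-high cells, against 8.28 ± 0.08 in GFP-negative cells (SD, n = 3 each), a log2 difference of -1.75 ± 0.21 (SE), or 3.38-fold lower.

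Mapk8, which encodes the widely expressed JNK1, read 7.57, 7.22 and 7.41 in GFP-high cells, against 8.29, 8.24 and 8.48 in GFP-negative cells. The groups were separated by 0.67, more than the range within either. The log2 difference was -0.94 ± 0.13 (SE, n = 3 per group), or 1.91-fold lower in GFP-high cells.

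Mapk9, the gene of JNK2, differed little: it read 7.28, 6.997 and 7.10 in GFP-high cells, against 7.45, 7.44 and 7.45 in GFP-negative cells. The groups did not overlap, but the gap of 0.17 was smaller than the 0.28 spanned by the GFP-high arrays. The log2 difference was -0.32 ± 0.11 (SE, n = 3 per group), or 1.25-fold lower in GFP-high cells.

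The 3 JNK genes therefore differed by unequal amounts within the same arrays. Set to 0 at its GFP-negative mean, the within-array difference of Mapk10 minus Mapk9 lay between -1.70 and -0.89 in the GFP-high arrays and between -0.06 and 0.09 in the GFP-negative arrays. For Mapk8 minus Mapk9 the GFP-high arrays lay between -0.66 and -0.58 and the GFP-negative arrays between -0.09 and 0.14. For Mapk10 minus Mapk8 they lay between -1.11 and -0.31 in GFP-high cells and between -0.05 and 0.06 in GFP-negative cells. The groups stayed apart in each of these 3 pairs, with Mapk10 lowest and Mapk9 highest relative to each other in GFP-high cells. Each gene is read by 1 row, so its splice forms were not told apart.

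The upstream sequences of the 3 JNK genes and of Mapk8ip2 are shown because these genes differed by such unequal amounts. They run from 250 bases before to 50 bases after a transcript start, 5′ to 3′ on the gene's strand, as RefSeq gives them for GRCm38.p6, with each CG dinucleotide in capitals. Mapk10 is at chr5:103211285-103211584 (minus strand), Mapk8 at chr14:33447109-33447408 (minus), Mapk9 at chr11:49846501-49846800 (plus) and Mapk8ip2 at chr15:89453661-89453960 (plus).
Mapk10: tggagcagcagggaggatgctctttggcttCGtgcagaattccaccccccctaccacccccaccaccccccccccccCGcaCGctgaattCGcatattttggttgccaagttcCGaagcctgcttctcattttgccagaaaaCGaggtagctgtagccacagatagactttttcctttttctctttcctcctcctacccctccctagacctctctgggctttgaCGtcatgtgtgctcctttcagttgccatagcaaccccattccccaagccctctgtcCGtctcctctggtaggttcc
Mapk8: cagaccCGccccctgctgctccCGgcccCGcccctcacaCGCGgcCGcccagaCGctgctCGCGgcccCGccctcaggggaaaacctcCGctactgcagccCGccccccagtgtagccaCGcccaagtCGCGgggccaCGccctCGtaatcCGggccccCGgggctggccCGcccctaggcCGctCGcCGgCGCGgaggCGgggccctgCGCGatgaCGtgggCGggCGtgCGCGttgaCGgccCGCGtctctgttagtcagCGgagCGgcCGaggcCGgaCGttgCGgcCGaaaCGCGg
Mapk9: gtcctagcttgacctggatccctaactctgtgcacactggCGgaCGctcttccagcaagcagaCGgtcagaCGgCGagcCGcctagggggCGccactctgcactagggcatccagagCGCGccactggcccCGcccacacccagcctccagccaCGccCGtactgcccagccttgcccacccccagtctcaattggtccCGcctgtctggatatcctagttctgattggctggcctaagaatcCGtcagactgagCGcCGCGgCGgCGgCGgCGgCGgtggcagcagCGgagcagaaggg
Mapk8ip2: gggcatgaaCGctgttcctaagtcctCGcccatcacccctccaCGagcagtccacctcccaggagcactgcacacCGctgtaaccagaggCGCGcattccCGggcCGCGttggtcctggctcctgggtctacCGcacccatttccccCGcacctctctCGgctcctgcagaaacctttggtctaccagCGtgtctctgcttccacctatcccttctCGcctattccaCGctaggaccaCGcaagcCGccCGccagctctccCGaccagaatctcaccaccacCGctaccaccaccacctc

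The Mapk10 window shown holds 8 CG dinucleotides and is 55.3% G and C, and the Mapk8 window shown holds 45 and is 77.7%. The Mapk9 window holds 23 and is 66.7%, and the Mapk8ip2 window 20 and 63.3%. These values depend on the start taken: a second Mapk10 window holds 2 and is 32.7%, and a second Mapk8 window 1 and 34.3%. The median over all 32851 windows of the table is 7 CG and 52.7%. Windows were found for 6 of the listed genes, 9 windows in all, since Mapk8, Mapk10 and Mapk14 have a second one. They were searched on both strands for the left and right parts of RE1, the element bound by the neuronal gene repressor REST (TTCAGCACC, in 0.371% of all windows, and GGACAGC, in 6.56%), for the AP-1 motif TGANTCA (7.81%) and for the E-box CAGCTG (16.3%), and 0 of the 9 windows held any of these letters. The cAMP response element TGACGTCA, a motif added after the windows were seen and present in 1.79% of all windows, occurs once, in the first Mapk10 window, beginning 29 bases before the start. A match or its absence in a window of this length describes letters only.

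Mapk14 and Mapk4 stand outside the JNK branch. Mapk14 encodes p38 alpha, the main p38 kinase of stress and cytokine responses, and read 7.88, 7.93 and 7.81 in GFP-high cells, against 8.16, 8.56 and 8.33 in GFP-negative cells. The gap between the groups was 0.23, less than the 0.40 spanned by the GFP-negative arrays. Its log2 difference was -0.47 ± 0.13 (SE, n = 3 per group), or 1.39-fold lower in GFP-high cells.

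Mapk4 encodes ERK4, an atypical MAP kinase that lacks the usual paired phosphorylation motif and binds the kinase MK5. It read 5.97, 5.94 and 5.86 in GFP-high cells, against 7.09, 7.35 and 7.03 in GFP-negative cells. The GFP-high arrays lay within 0.11 of each other and 1.06 below the lowest GFP-negative array. The log2 difference was -1.23 ± 0.12 (SE, n = 3 per group), or 2.35-fold lower. Array medians lay between 5.30 and 5.43, and RMA compresses differences at the low end of its scale.

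The JIP scaffold genes split. Mapk8ip2, whose product JIP2 is found mainly in brain and binds JNK cascade kinases, read 6.36, 6.47 and 6.82 in GFP-high cells, against 8.29, 8.53 and 8.15 in GFP-negative cells. Its groups were 1.32 apart, the widest gap among the 8 genes. The group means were 6.55 ± 0.24 in GFP-high cells, against 8.32 ± 0.20 in GFP-negative cells (SD, n = 3 each), a log2 difference of -1.77 ± 0.16 (SE), or 3.42-fold lower.

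Mapk8ip1, whose product JIP1 is a close relative of JIP2 first known from brain and pancreatic islet cells, read 7.34, 7.27 and 7.64 in GFP-high cells, against 8.49, 8.70 and 8.71 in GFP-negative cells. A gap of 0.85 separated the groups. The log2 difference was -1.22 ± 0.14 (SE, n = 3 per group), or 2.32-fold lower in GFP-high cells.

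Mapk8ip3, whose product JIP3 is unrelated in sequence to JIP1 and links cargo to kinesin and dynein, read 8.44, 8.66 and 8.18 in GFP-high cells, against 8.63, 8.39 and 8.94 in GFP-negative cells. The groups overlapped, and the log2 difference of -0.23 ± 0.18 (SE, n = 3 per group) was within the spread of the arrays, which ranged over 0.47 in the GFP-high group and 0.55 in the GFP-negative group. A further row that names Mapk8ip3 together with a neighbouring gene was not used. Within an array and set to 0 at its GFP-negative mean, Mapk8ip2 minus Mapk8ip3 lay between -1.86 and -1.03 in GFP-high cells and between -0.47 and 0.48 in GFP-negative cells. Mapk8ip1 minus Mapk8ip3 lay between -1.37 and -0.52 in GFP-high cells and between -0.21 and 0.33 in GFP-negative cells. Mapk8ip2 minus Mapk8ip1 lay between -0.67 and -0.49 in GFP-high cells and between -0.25 and 0.14 in GFP-negative cells.

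**Figure D2:**
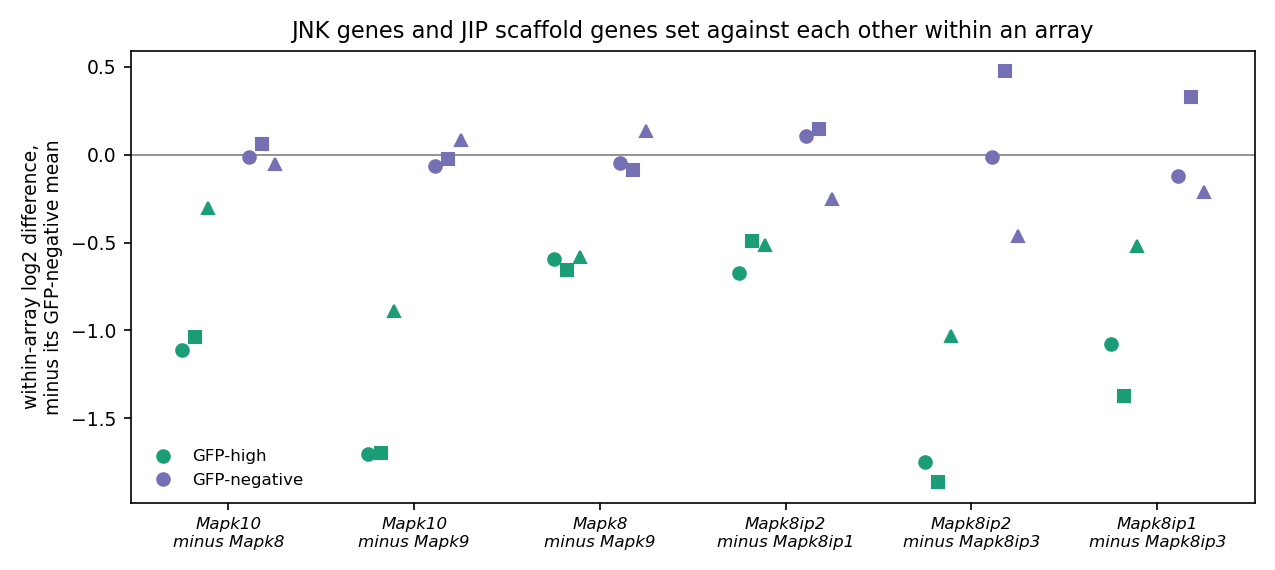
Difference of 2 log2 values within an array, less its mean over the GFP-negative arrays (vertical axis), for 3 pairs of JNK genes and 3 pairs of JIP genes, in GFP-high (green, left) and GFP-negative (purple, right) arrays, with circles, squares and triangles for replicates 1, 2 and 3. In all 6 pairs the GFP-high arrays lie below the GFP-negative arrays; for Mapk10 minus Mapk8, GFP-high replicate 3 reads -0.31, above the other GFP-high arrays.

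The GFP-high arrays did not move alike. GFP-high replicate 3 was the GFP-high array nearest to the GFP-negative mean for Mapk10, Mapk8ip1 and Mapk8ip2, and for none of the other 5 genes. For Mapk10 it lay -1.24 from that mean, against -1.88 and -2.15 in GFP-high replicates 1 and 2. For Mapk8ip2 it lay -1.50 from it, against -1.96 and -1.86, and for Mapk8ip1 -0.99, against -1.29 and -1.37. For Mapk4, Mapk14 and Mapk8ip3 the same array lay farthest away, at -1.30, -0.54 and -0.47.

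GFP-high replicate 3 was thus nearest for 3 of the 8 measured genes (37.5%). It was nearest for 12 of the 14 neuroendocrine markers (85.7%) and for 2340 of the 3773 genes called lower (62%). Its mean over the neuroendocrine list was 8.02, against 7.32 in replicate 1 and 7.11 in replicate 2. Without GFP-high replicate 3 the log2 differences were -2.01 for Mapk10, -1.91 for Mapk8ip2 and -1.33 for Mapk8ip1.

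**Figure D3:**
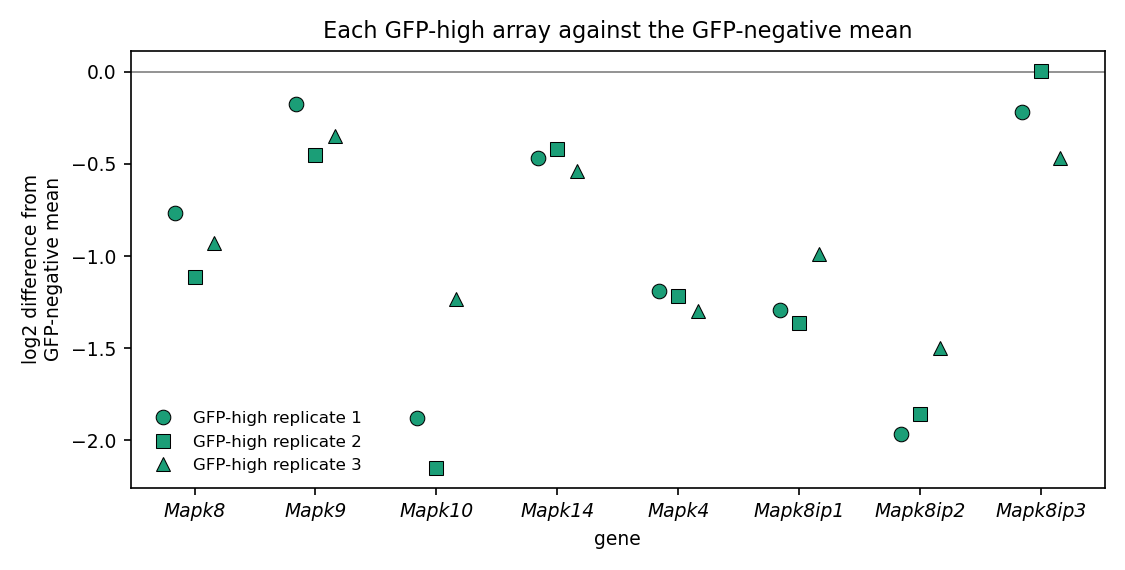
Log2 difference of each GFP-high array from the mean of the 3 GFP-negative arrays (vertical axis) for the 8 genes (horizontal axis), with circles, squares and triangles for GFP-high replicates 1, 2 and 3. Replicate 3 lies nearest to 0 for Mapk10, Mapk8ip1 and Mapk8ip2 and not for the other 5 genes.

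Likeness of 2 genes was measured as the root mean square difference of their log2 values over the 6 arrays after each gene's own mean was subtracted. Among the listed genes Mapk9 and Mapk14 were nearest by this measure (0.17), followed by Mapk4 and Mapk8ip1 (0.18). Mapk10 was closest to Mapk8ip2 (0.22). The measure is not scaled, so genes with small differences lie close. Within the GFP-high group, replicate 2 read lowest for Mapk9 and highest for Mapk14. The farthest pair was Mapk10 and Mapk8ip3 (0.88). The search beyond the listed genes left out genes with predicted or clone names, small RNA genes and olfactory receptor genes. Over the other annotated genes, the nearest to Mapk10 were Tmem184c (0.05), Elmo1, an activator of Rac signalling (0.07), and Ccdc88a, the actin-binding protein girdin (0.08). The nearest to Mapk8ip2 were the potassium channel gene Kcnma1, the neuropeptide precursor gene Vgf and Plekho2 (all 0.07). Mapk8ip1 lay nearest to the forkhead factor gene Foxp1 (0.02), then Cand2 and Parp6 (both 0.04). Mapk4 lay nearest to the Rac exchange factor gene Prex1 (0.07), then Josd2 and C2cd4b (both 0.08).

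The other genes of the MAP kinase pathway were taken from 7 lists set up by role, 101 genes in all, of which 91 were measured. The lists were chosen with earlier results of these data known, so their counts are given as a description. In the limma fit 16 were higher in GFP-high cells (17.6%), 27 were lower (29.7%) and 48 were not called, at an adjusted p under 0.05, with a median log2 difference of -0.09. Over all 22179 genes 13% were higher and 17% lower, with a median of 0.01. That background includes genes at low levels. With the lowest 30% of genes left out, 2825 of 15525 genes were higher and 4022 lower. Of the 88 pathway genes kept by that filter, 17 were higher and 29 lower. The phosphatases had the lowest list median (-0.92), and the other list medians lay between -0.21 and 0.02.

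**Figure D4:**
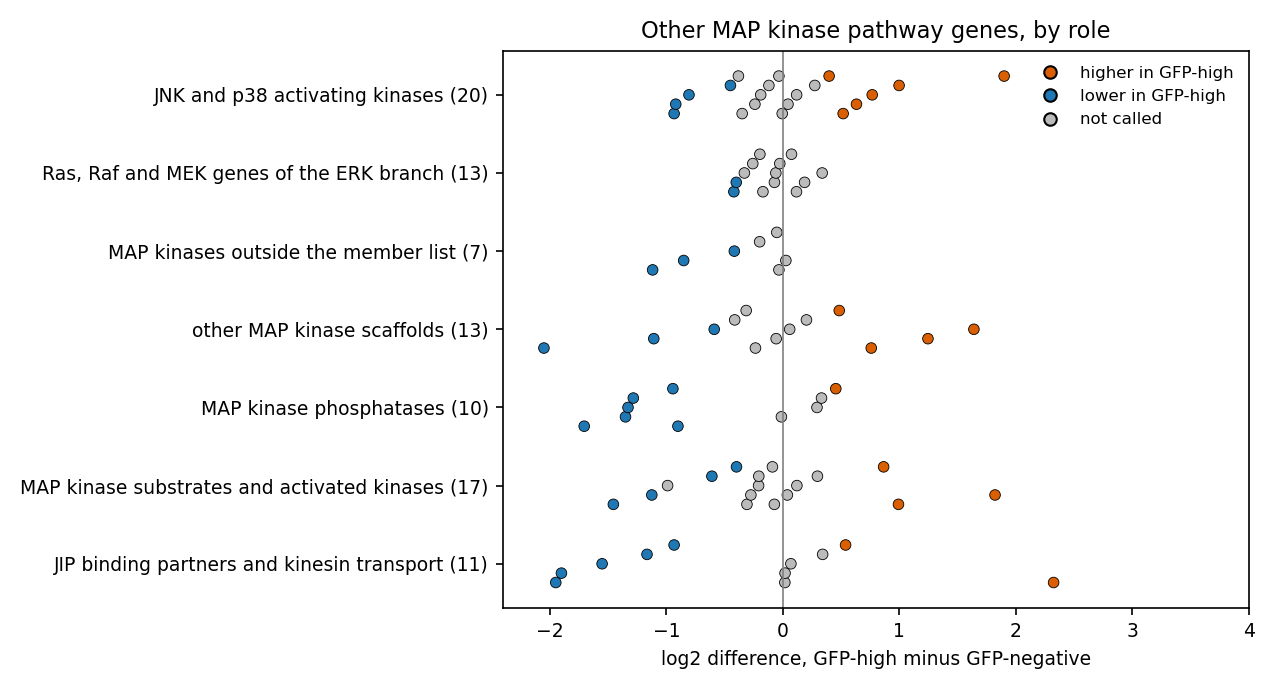
Log2 difference, GFP-high minus GFP-negative (horizontal axis), of the 91 measured pathway genes, 1 point per gene, in 7 lists with the number measured in brackets; orange marks genes higher in GFP-high cells, blue genes lower and grey genes not called. The phosphatases have 6 blue points and 1 orange point, and the Ras, Raf and MEK genes lie close to 0.

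Among the kinases that activate JNK and p38, 6 of 20 were higher, 4 lower and 10 not called (median -0.02). Taok3, a MAP3K of the TAO family, rose by 1.90 ± 0.13 (log2 difference ± SE, adjusted p = 1.55e-05), with 9.82, 9.62 and 9.51 in GFP-high cells, against 7.77, 7.88 and 7.61 in GFP-negative cells. Map2k6, which activates p38, rose by 1.00 ± 0.12 (adjusted p = 0.000281 by limma). Its values were low, 4.69, 4.66 and 4.82 in GFP-high cells, against 3.59, 3.83 and 3.76 in GFP-negative cells. Array medians lay between 5.30 and 5.43. The filter of the lowest 30% of genes removed it, and the list then had 5 of 19 higher. Map3k10, the mixed-lineage kinase MLK2, and Map3k6, a relative of the stress kinase ASK1, fell (-0.93 ± 0.14 and -0.92 ± 0.15).

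Of the 7 measured MAP kinases outside the list, 3 fell and 4 were not called. Mapk6, which encodes ERK3, the closest relative of ERK4, read 8.73, 8.49 and 8.94 in GFP-high cells, against 9.84, 9.79 and 9.89 in GFP-negative cells (log2 difference -1.12 ± 0.14 SE, adjusted p = 0.000356 by limma). Mapk11, the gene of p38 beta, fell by 0.85 ± 0.15 on the log2 scale (adjusted p = 0.00271 by limma). Nlk, the Nemo-like kinase, fell by 0.42 ± 0.11, a call lost without GFP-high replicate 2 (adjusted p = 0.0602 by limma) or GFP-negative replicate 3 (0.0583). Mapk7 (-0.20 ± 0.12), Mapk12 (-0.05 ± 0.12), Mapk13 (-0.03 ± 0.13) and Mapk15 (0.03 ± 0.12), which encode ERK5, p38 gamma, p38 delta and ERK7, were not called.

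The Ras, Raf and MEK genes of the ERK branch had 0 higher, 2 lower and 11 not called of 13 (median -0.07). Sos1 and Sos2, exchange factors that load Ras with GTP, were the lower members, by -0.42 ± 0.11 (adjusted p = 0.0209 by limma) and -0.40 ± 0.13 (adjusted p = 0.0451). Sos1 lost its call without GFP-high replicate 2 (0.0631) or 3 (0.0542) or GFP-negative replicate 2 (0.0643) or 3 (0.0647). Sos2 lost its call without any single array other than GFP-negative replicate 3 (adjusted p from 0.0663 to 0.126), and also after median centring (0.0545) or quantile normalization (0.0611).

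The MAP kinase phosphatases, which remove the activating phosphates, had 6 of 10 lower, 1 higher and 3 not called. Dusp4 read 6.67, 6.87 and 7.66 in GFP-high cells, against 8.61, 9.02 and 8.69 in GFP-negative cells (log2 difference -1.71 ± 0.25 SE, adjusted p = 0.00089 by limma), with GFP-high replicate 3 nearest to the GFP-negative arrays and a difference of -2.004 without it. Dusp5 (-1.35 ± 0.16), Dusp2 (-1.33 ± 0.29) and Dusp10 (-1.28 ± 0.15), the last of which acts on JNK and p38, fell as well. The member that rose, Dusp1 (0.45 ± 0.12, named after its value was seen), was not called without GFP-high replicate 1 or 2 or GFP-negative replicate 1 or 3, or in a test without moderation, and the list then had 0 higher.

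Other scaffolds went both ways, 4 higher, 3 lower and 6 not called of 13 (median -0.06). Ksr2, a scaffold of the ERK branch made mainly in brain, had the largest difference of its list: it read 5.83, 5.86 and 6.28 in GFP-high cells, against 8.15, 7.87 and 8.10 in GFP-negative cells (-2.05 ± 0.15, adjusted p = 2.71e-05 by limma). Wdr62, a JNK scaffold of the mitotic spindle, fell by 1.11 ± 0.11 on the log2 scale (adjusted p = 0.000146 by limma). Arrb1, encoding beta-arrestin 1, rose by 1.64 ± 0.14 and Cnksr1, a scaffold of Ras signalling, by 1.25 ± 0.13.

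Of 11 measured JIP partners and kinesin genes, 5 fell, 2 rose and 4 were not called (median 0.02). The neuronal kinesin heavy chain genes Kif5c (-1.95 ± 0.24, adjusted p = 0.000365 by limma; -2.25 without GFP-high replicate 3) and Kif5a (-1.90 ± 0.15, adjusted p = 3.97e-05 by limma) fell. Lrp8, a reelin receptor that binds JIP proteins, fell by 1.55 ± 0.25 on the log2 scale. The related receptor gene Lrp1 rose by 2.32 ± 0.24. Klc1 (-1.17 ± 0.10) and Kif5b (-0.93 ± 0.13), named after their values were seen, were the other genes of the list that fell. Klc4 (0.54 ± 0.12), also named after its value was seen, was the other gene of the list that rose.

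Of 17 measured substrates and MAP kinase-activated kinases, 3 rose, 4 fell and 10 were not called (median -0.21). Mapkapk3 and Mapkapk2, kinases activated by p38, rose by 1.82 ± 0.14 and 0.99 ± 0.12 on the log2 scale (adjusted p = 2.71e-05 and 0.00033 by limma). The microtubule proteins Map1b (-1.46 ± 0.16) and Map2 (-1.13 ± 0.12), phosphorylated by JNK in neurons, fell. Jun (-0.07 ± 0.11) and Atf2 (-0.31 ± 0.11), named after their values were seen, were among the genes not called.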

How the data were processed

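Gene expression was measured on 6 arrays, 3 GFP-high and 3 GFP-negative. The authors deposited log2 values from RMA, per the submitters' processing notes, which name no version. RMA corrects background and equalises array distributions, so a change common to most genes is hidden. Rows naming 1 gene (23520 of 41344) were kept, with the highest-mean row per gene, which left 22179 genes. No gene was dropped for a low level, and no sample was dropped. Groups were compared with limma 3.58.1 (R 4.3.3; lmFit and eBayes, no block), as GFP-high minus GFP-negative, with Benjamini-Hochberg adjustment over all genes. The script was tested on simulated data. A permutation of 3 against 3 arrays cannot give a p below 0.1, so none is given. The number of arrays limits the precision. The genes and lists were chosen with earlier results of these data known. Named pathway genes are the up to 4 called genes with the largest difference in each list and every measured MAP kinase outside the list; likeness to other genes is given for genes that differ by at least 1. Proteins were not compared here, and Mapk8ip1 has no upstream sequence shown. Alternatives were median centring, quantile normalization, a filter of the lowest 30%, the mean of rows, other eBayes settings, array weights, a replicate block, leaving out each array, no moderation and a minimum difference of 1.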

Additional observations from a re-analysis of the deposited data

How the results depend on the processing

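The 8 genes kept their direction in all 88 values from 11 alternatives. For the 7 genes whose groups do not overlap, leaving out 1 array or weighting the arrays could not turn the direction. Keeping it there says nothing. Under median centring, quantile normalization and array weights no value moved by more than the replicate spread. A shift of that size could not arise from leaving out 1 of 3 arrays, so that criterion says nothing there. For these genes the mean of rows and the replicate block return the main value by construction. Leaving out 1 array gave log2 differences of -2.01 to -1.56 for Mapk10, -1.91 to -1.67 for Mapk8ip2, -1.33 to -1.14 for Mapk8ip1, -1.30 to -1.14 for Mapk4, -1.02 to -0.85 for Mapk8, -0.57 to -0.37 for Mapk14, -0.40 to -0.26 for Mapk9 and -0.36 to -0.08 for Mapk8ip3. Other pathway genes higher numbered 12 to 17 and lower 24 to 26, and all genes called 5408 to 6116. With a minimum log2 difference of 1, a stricter rule by construction, 2584 genes were called, with 5 pathway genes higher and 13 lower. The labels do not say whether same-numbered samples share a pool. Their deviations from the group means correlated at 0.114, -0.0256 and -0.00159, and 2 of 6 samples correlated best with their own number. With 3 samples per group these values cannot decide the question. With the replicate block 6172 genes were called, with 15 pathway genes higher and 24 lower, and Sos1 (adjusted p = 0.0516 by limma) and Sos2 (0.0766) lost their calls. Without moderation Sos2 (0.0879) and Dusp2 (0.0946) lost theirs, and the phosphatases had 0 higher and 4 lower. With 3 arrays per group, differences near 0.2 such as that of Mapk8ip3 could not be told from array spread.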
